A study of Mus musculus with 12 samples.

Results

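Voltage-gated and sodium-activated potassium channels were followed at the level of 31 genes in the trigeminal ganglion of adult mice, out of 55416 gene identifiers counted. The genes were taken from a list of names: pore-forming alpha subunits of the Kv1, Kv2, Kv3, Kv4, Kv7, EAG and ERG families, silent modifier subunits, the auxiliary Kv beta and KChIP subunits, and the sodium-activated channels Slack and Slick. All 31 matched 1 identifier each and all passed the filter on low counts. Bulk polyadenylated RNA was sequenced from whole ganglia of C57Bl6 mice, 1 month after injection, with 6 inducible knockouts of Prdm12 (iKO) and 6 controls. Prdm12 encodes a transcriptional regulator needed for the development of nociceptors, and the series asks which genes depend on it in the adult.

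The 6 iKO animals carried Rosa26Cre ERT2 and 2 floxed Prdm12 alleles and were injected with tamoxifen. Control 1 carried Rosa26Cre ERT2 and 1 floxed allele, controls 2 and 3 had 1 floxed allele and no Cre, and control 4 had Rosa26Cre ERT2 and no floxed allele. These 4 controls also received tamoxifen. Corn oil was given to controls 5 and 6, whose genotype was that of the iKO animals. Rosa26 is a broadly active locus, so recombination is not restricted to neurons. Females were iKO 1, 2 and 3 and controls 1 and 2. The labels do not say whether a library is 1 animal or a pool, and the p-values measure only the spread between these libraries.

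Kv channels open when the membrane depolarises and let potassium leave the cell, which ends the action potential and sets how fast a neuron can fire again. Kv1 channels act near threshold and are clustered beside the nodes of Ranvier, Kv2 and Kv3 channels repolarise the spike, Kv4 channels carry the fast A-type current, Kv7 channels carry the M-current, and Slack and Slick open when sodium enters. In sensory neurons these currents restrain firing, and a fall of Kv channel transcripts is a known accompaniment of nerve injury.

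Prdm12 measured 16.8 ± 1.97 CPM (reads per 1000000 counted, TMM-normalised) in iKO and 106 ± 28.4 CPM in controls (SD, n = 6 each), or -2.64 on the log2 scale (edgeR adjusted p = 2.7e-05). Total counts ran from 13207526 to 24178970 per library, so a count of 0 allows up to 0.227 CPM in the shallowest library (3 counts, counting error only). The 12 markers of sensory neurons in general were all measured, with summed levels of 8308 to 10416 CPM in controls against 8721 to 10512 CPM in iKO. None of them was called, but 3 were lower and none higher at an unadjusted p under 0.05, and the smallest p belonged to Elavl3 (log2 fold change -0.24, edgeR adjusted p = 0.188) and Gap43 (-0.17, edgeR adjusted p = 0.382). Libraries that stand apart were control 6, highest in oligodendrocyte and astrocyte markers (2492 CPM summed), and iKO 5 and iKO 6, highest in skeletal muscle markers (1186 and 366 CPM summed).

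Upstream sequence is shown for 3 Kv1 genes: Kcna6 and Kcna4, whose levels were lower in every iKO library, and Kcna2, the most abundant Kv1 alpha subunit. The windows are the 250 bases before the start site in RefSeq (build GRCm38.p6, older than the GRCm39 build of the counts), 5′ to 3′ on the strand of the gene. They lie at chr6:126740675-126740924 on the minus strand for Kcna6, chr2:107290339-107290588 on the plus strand for Kcna4 and chr3:107101317-107101566 on the plus strand for Kcna2. Capitals mark GC boxes (GGGCGG) and E-boxes (CANNTG), searched on both strands.
Kcna6: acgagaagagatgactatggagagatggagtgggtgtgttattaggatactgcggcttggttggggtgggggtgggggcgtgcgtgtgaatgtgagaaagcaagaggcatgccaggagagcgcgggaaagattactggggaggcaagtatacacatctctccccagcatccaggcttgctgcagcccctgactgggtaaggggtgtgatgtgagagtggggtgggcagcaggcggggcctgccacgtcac
Kcna4: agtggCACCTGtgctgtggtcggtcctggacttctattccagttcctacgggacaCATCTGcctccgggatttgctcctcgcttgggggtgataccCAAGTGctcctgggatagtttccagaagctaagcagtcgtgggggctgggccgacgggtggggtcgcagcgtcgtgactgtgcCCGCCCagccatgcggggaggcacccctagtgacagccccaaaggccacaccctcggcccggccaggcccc
Kcna2: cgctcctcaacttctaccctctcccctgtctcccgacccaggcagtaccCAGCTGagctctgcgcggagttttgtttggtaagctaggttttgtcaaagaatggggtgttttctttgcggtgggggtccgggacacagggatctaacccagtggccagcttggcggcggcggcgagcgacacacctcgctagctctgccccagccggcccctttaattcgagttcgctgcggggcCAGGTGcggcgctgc

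The Kcna6 window held neither motif, the Kcna4 window 1 GC box and 3 E-boxes, and the Kcna2 window 2 E-boxes and no GC box. No CCAAT or TATAAA was found in any of the 3. Of 32851 RefSeq promoters, 32.7% held a GC box in the same window, 66.2% an E-box, 33.8% CCAAT and 12.4% TATAAA. G and C made up 58.8%, 65.2% and 62.4% of the 3 windows, against a median of 52.4%, and they held 8, 14 and 18 CG pairs, against a median of 6. Of the 31 genes, 24 had at least 1 promoter in the table, and some have several. These matches describe the letters only.

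Between iKO and control, 1 of the 31 channel genes passed the test over all genes, Kcna6, which fell. Kcna6 encodes the Kv1 alpha subunit Kv1.6. The share called among all 16637 genes tested was 0.379%, and 0.204% were called lower. At an unadjusted p under 0.05 there were 5 channel genes with higher and 5 with lower values in iKO, 32.3% of the list, against 10.9% of all genes (4.9% higher and 6% lower). Because the list was chosen with earlier results of these data known, these shares are descriptions only. The median log2 fold change of the list was -0.03, against 0.00 over all genes (0.0011), and the median absolute log2 fold change was 0.12, against 0.08. In 28 of the 31 genes the 95% interval of the change lay within 1.5-fold in both directions. The other 3, Kcna3, Kcnab3 and Kcnd2, all measured under 5 CPM in controls.

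**Figure D1:**
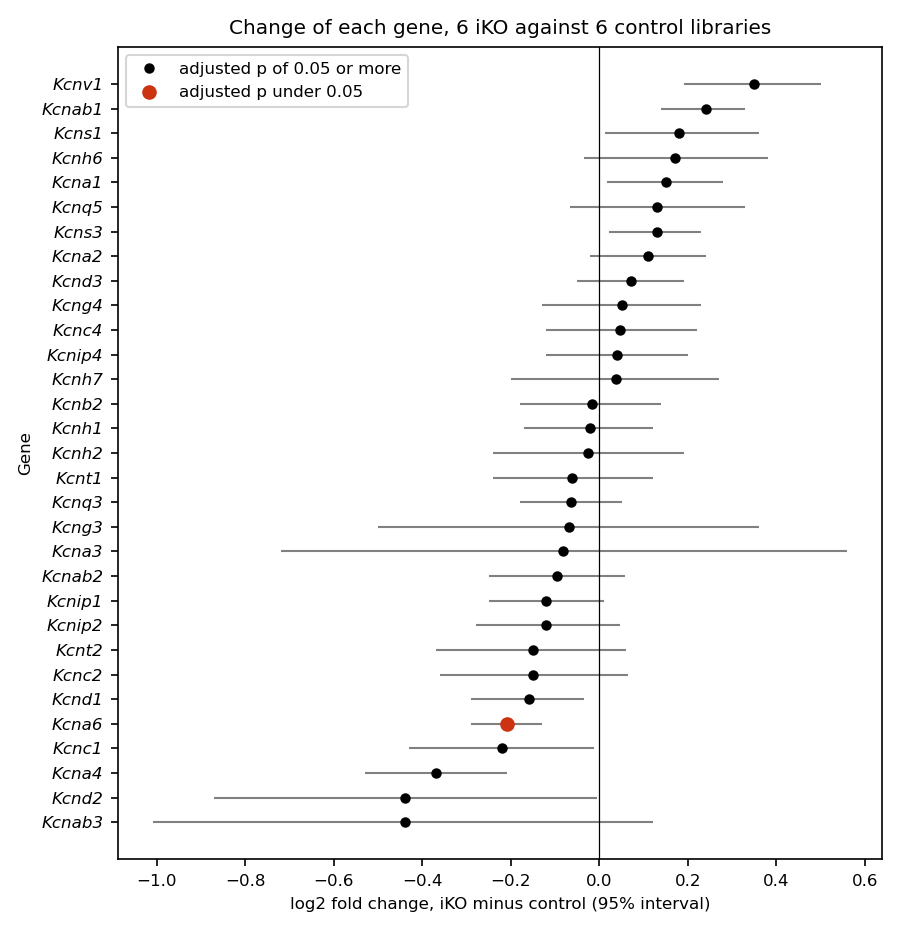
Log2 fold change of each of the 31 channel genes, iKO minus control, over 6 libraries each (edgeR quasi-likelihood fit with sex as a covariate), with genes on the vertical axis and bars for 95% intervals. Kcna6 (red, at -0.21) is the gene past the threshold, and the widest intervals belong to Kcna3, Kcnab3 and Kcnd2.

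Of the 5 Kv1 alpha subunit genes, Kcna6 passed the test and the other 4 did not. Kcna6 measured 97.1, 104 and 105 CPM in controls (lowest, median and highest library) and 84.5, 89.5 and 91.8 CPM in iKO. Every iKO library was below every control, and the spread within each group was narrow, with SDs of 2.92 and 2.68 CPM around means of 103 and 88.8 CPM (n = 6 each). The iKO level was 86.4% of the control level, a change of -0.21 ± 0.0364 (SE) on the log2 scale (edgeR adjusted p = 0.0301), from 1210 to 2241 reads per library. With 1 library left out the log2 fold change was -0.23 to -0.18, but the call held only without control 1 (adjusted p = 0.0376) or iKO 2 (adjusted p = 0.0306). It was lost without control 2, 3, 4, 5 or 6 or iKO 1, 3, 4, 5 or 6, with an adjusted p of up to 0.126. It was also lost with no filter on low counts (edgeR adjusted p = 0.0726), in tamoxifen-injected animals only (0.149) and in CreERT2 carriers only (0.251), with log2 fold changes of -0.21 to -0.20. Without control 6, iKO 5 and iKO 6 together, a setting added after the data were seen, it was -0.18 (edgeR adjusted p = 0.234) and none of the 31 genes was called.

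Kcna4 encodes Kv1.4, an inactivating Kv1 subunit found in small sensory neurons. It measured 22.3, 25.2 and 28.6 CPM in controls against 17.5, 19.5 and 21.7 CPM in iKO (lowest, median, highest). The groups did not overlap, with iKO 4 highest among the knockouts and control 6 lowest among the controls. Its log2 fold change was -0.37 ± 0.0732, a larger change than that of Kcna6, and it lay just outside the threshold (edgeR adjusted p = 0.0522). DESeq2 placed it inside, with an adjusted p of 0.00156 at the same log2 fold change, and so did limma-voom and edgeR with either other filter or with no covariate. In all, DESeq2 called 4 of the 31 genes, Kcna6, Kcna4, Kcnab1 and Kcnv1, against 2.2% of all genes it tested.

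Kcna1 and Kcna2 encode Kv1.1 and Kv1.2, the subunits typical of large myelinated axons. Kcna1 measured 234, 255 and 283 CPM in controls against 261, 291 and 324 CPM in iKO, with overlapping groups (log2 fold change 0.15 ± 0.061; edgeR adjusted p = 0.389). Kcna2 measured 789, 874 and 924 CPM in controls against 853, 956 and 1080 CPM in iKO, also overlapping (0.11 ± 0.0606; edgeR adjusted p = 0.551). Neither passed, and the intervals of the change ran from 0.02 to 0.28 for Kcna1 and from -0.02 to 0.24 for Kcna2. Kcna3, which encodes Kv1.3, a subunit best known from lymphocytes, was near the detection limit, with 7 to 37 reads per library and 1.29 ± 0.472 CPM in controls.

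**Figure D2:**
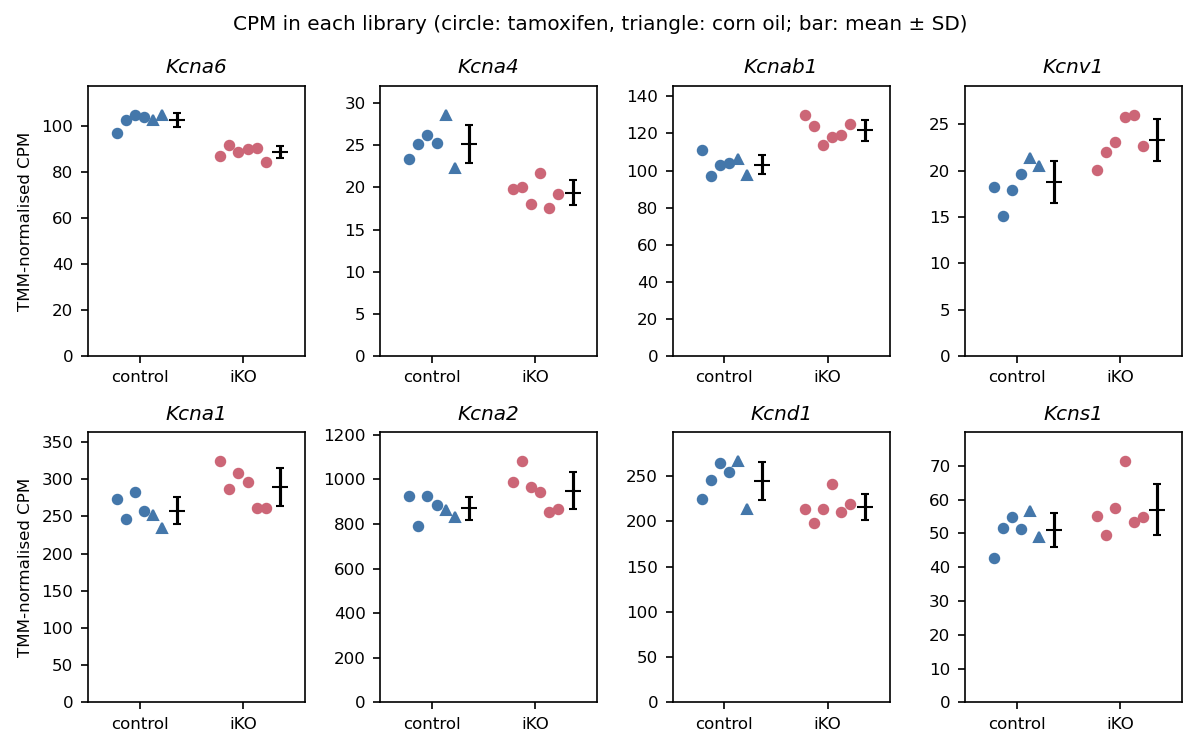
TMM-normalised CPM of 8 channel genes in each library, controls in blue and iKO in red, with circles for tamoxifen and triangles for corn oil, and the mean ± SD (n = 6) beside each group. Kcna6, Kcna4 and Kcnab1 separate the groups, while the other 5 genes overlap.

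Per kilobase of exon, Kcna2 and Kcna1 made up most of the Kv1 alpha transcripts. In controls Kcna2 held 48.6% of the summed CPM per kb of the 5 genes, Kcna1 35.9%, Kcna6 11.5%, Kcna4 3.47% and Kcna3 0.455%. In iKO the share of Kcna4 was 2.51% (2.26 to 2.78%), below the control range of 3.1 to 3.96%. The share of Kcna6 was 9.38% (8.59 to 10.5%) in iKO and 10.4 to 12.4% in controls, so that these ranges overlapped at their ends. Kcna1 had 37.9% and Kcna2 49.8% in iKO. These shares are descriptions without a test, and they follow from the same counts as the levels above.

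**Figure D3:**
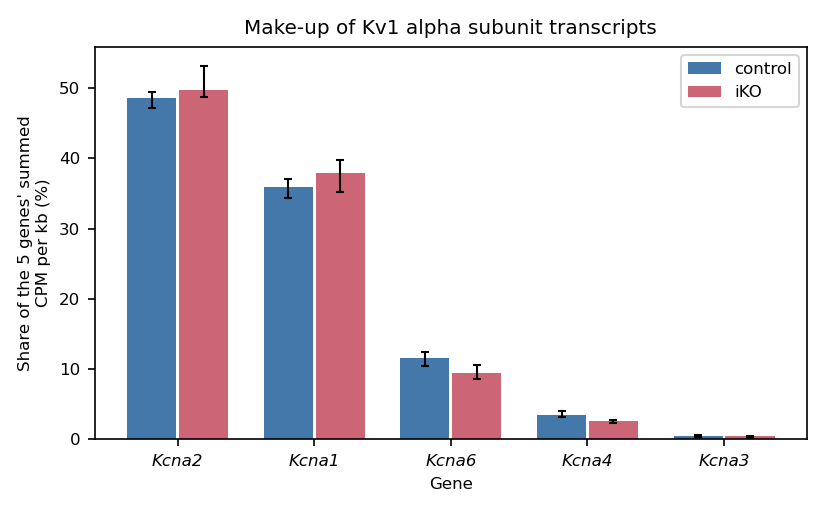
Share of each Kv1 alpha gene in the summed CPM per kb of the 5 genes, in percent, for controls (blue) and iKO (red); bars are means over 6 libraries and whiskers the lowest and highest library. Kcna4 and Kcna6 have smaller mean shares in iKO (2.51% and 9.38%) than in controls (3.47% and 11.5%).

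Ganglia hold several kinds of neuron, and in bulk RNA fewer cells of a type cannot be told apart from less RNA per cell. Of 12 nociceptor markers, 6 were lower and 1 higher at an unadjusted p under 0.05. Their median log2 fold change was -0.21, the same size as that of Kcna6, and their summed level ran from 3495 to 4212 CPM in controls and from 3267 to 3901 CPM in iKO. Of 12 markers of large myelinated sensory neurons none was called, and 2 were higher and 1 lower at an unadjusted p under 0.05. Their median was 0.06, and the summed level ran from 7572 to 8841 CPM in controls and from 8017 to 9200 CPM in iKO. The smallest p among them belonged to Ntrk3 (0.36, edgeR adjusted p = 0.0631) and Necab2 (-0.34, edgeR adjusted p = 0.289). Of 10 myelinating Schwann cell markers 1 was called, Pmp22, which rose (0.36, edgeR adjusted p = 0.018). At an unadjusted p under 0.05, 5 of the 10 were higher and 0 lower, and the median was 0.19. Of 10 fibroblast and meninges markers 1 fell, Slc22a6 (-1.1, edgeR adjusted p = 0.0476), 7 were lower at an unadjusted p under 0.05, and the median was -0.52. None of the markers of 6 other kinds of cell was called. Their median log2 fold changes were 1.22 for skeletal muscle (4 of 12 higher at an unadjusted p under 0.05), -1.1 for oligodendrocytes and astrocytes (2 of 10 lower), -0.32 for brain neurons (1 of 5 tested lower), -0.30 for macrophages (2 of 8 lower), -0.27 for satellite glia (none of 8) and 0.02 for smooth muscle and endothelium (2 of 8 lower). The part of these differences in the channel values was not tested.

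The Kv beta subunits are cytoplasmic partners of Kv1 channels that aid transport to the axon, and some of them speed inactivation. Kcnab1 measured 97.1, 104 and 111 CPM in controls against 114, 122 and 130 CPM in iKO. The groups did not overlap, and the iKO level was 118% of the control level. The log2 fold change of 0.24 ± 0.046 was just outside the threshold (edgeR adjusted p = 0.0511). DESeq2 called it (adjusted p = 0.000307), as did edgeR with either other filter or with no covariate. It did not pass in limma-voom or in edgeR with the other scaling or with replicate number as a block. Nor did it pass in tamoxifen-injected animals only or in CreERT2 carriers only. With 1 library left out it passed in 1 of 12 fits (edgeR adjusted p = 0.0429 to 0.153). Without strand, reads from exonic sequence that Kcnab1 shares with the antisense gene A330015K06Rik cannot be told apart. The antisense gene was assigned 3125 reads over the 12 libraries beside 24485 for Kcnab1. The length of the shared sequence was not computed. Kcna6 likewise has an antisense gene, Gm26673, with 941 reads beside 20873.

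Kcnab2 was the most abundant of the 31 genes per kilobase. It measured 966, 1161 and 1264 CPM in controls against 953, 1037 and 1191 CPM in iKO, overlapping over most of the range (log2 fold change -0.10 ± 0.0713; edgeR adjusted p = 0.672). Kcnab2 held 93.8% of Kv beta transcripts per kilobase in controls and Kcnab1 5.6%, and in iKO these shares were 92.4% and 7.01%. Kcnab3 was low, with 4 ± 1.62 CPM in controls (edgeR adjusted p = 0.583). Kcnab2 shares exonic sequence with Gm16334 on the same strand, and Kcnab3 with Kcnab3os on the other strand.

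Altogether 3 of the 31 genes had groups that did not overlap, Kcna6 and Kcna4 lower in every iKO library and Kcnab1 higher, which is 9.68% of the list against 1.2% of all genes tested (0.679% higher and 0.523% lower). All 3 are among the 8 Kv1 alpha and beta subunit genes of the list, and the groups overlapped in the other 5, Kcna1, Kcna2, Kcna3, Kcnab2 and Kcnab3. No test of that share was made. The list was chosen with earlier results of these data known, and the Kv1 grouping was noticed in the data, so both are descriptions only.

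Kv2 channels and some Kv3 channels carry delayed rectifier currents, and Kv3 channels of that kind allow fast firing. Kcnb2, which encodes Kv2.2, measured 194 ± 23.5 CPM in controls against 194 ± 13.6 CPM in iKO, and its interval of -0.18 to 0.14 on the log2 scale bounds the change. Kcnc1, which encodes Kv3.1, measured 57.8, 73.8 and 78.5 CPM in controls against 48.8, 57.4 and 74.8 CPM in iKO. Controls 1, 4 and 6 lay within the range of the iKO libraries and iKO 3 and 4 within that of the controls, and the difference did not pass (-0.22 ± 0.0959; edgeR adjusted p = 0.428). Kcnc2 measured 30.9 CPM and Kcnc4 67.5 CPM in controls, with log2 fold changes of -0.15 and 0.05.

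Kv4 channels carry the A-type current, and KChIPs are calcium-binding partners that raise their surface level. Kcnd1, which encodes Kv4.1, measured 214, 250 and 266 CPM in controls against 198, 213 and 241 CPM in iKO. Control 6 and control 1, at 214 and 225 CPM, lay among the iKO values. The log2 fold change of -0.16 ± 0.0596 did not pass (edgeR adjusted p = 0.319). Kcnd3, which encodes Kv4.3, measured 124 ± 8.96 CPM in controls against 130 ± 7.07 CPM in iKO. Its exons overlap those of Kcnd3os on the other strand, which was assigned 140 reads beside 27529 for Kcnd3. Kcnd2 was low, with 2.76 to 5.19 CPM in controls and 2.35 to 4.56 CPM in iKO (-0.44 ± 0.2; edgeR adjusted p = 0.454).

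In the Kv4 family no single gene passed, but the shares of Kcnd1 and Kcnd3 did not overlap between the groups. Per kilobase, Kcnd1 held 77.2% of Kv4 transcripts in controls (76.1 to 78.9%) and 74.3% in iKO (71.9 to 75.5%). Kcnd3 held 21.5% in controls (20.2 to 22.5%) and 24.7% in iKO (23.6 to 27.2%), so that neither share overlapped. Kcnd2 held only 1.31% in controls, so the shares of Kcnd1 and Kcnd3 move against each other and are not separate observations. This comparison was noticed in the data among the shares of several families and carries no test. How often such shares fail to overlap over all genes was not computed.

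Among the KChIP genes of the list, which leaves out Kcnip3, Kcnip4 was the most abundant per kilobase. It measured 134 ± 13.5 CPM in controls against 139 ± 13.1 CPM in iKO. Kcnip1 measured 26.6, 28.9 and 31.6 CPM in controls against 23.9, 26.6 and 29.5 CPM in iKO, a difference of -0.12 ± 0.0602 (log2; edgeR adjusted p = 0.505). Kcnip2 measured 57.9 CPM in controls against 53 CPM in iKO (-0.12; edgeR adjusted p = 0.615). Kcnip3 measured 236 ± 19.6 CPM in controls, above Kcnip4, against 208 ± 20.7 CPM in iKO (-0.15; edgeR adjusted p = 0.398). Its level per kilobase was not computed. Kcnip4 shares exonic sequence with 2 genes on the other strand, 5730480H06Rik and Gm20700, so its level is uncertain.

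Kv7 channels underlie the M-current, which damps repetitive firing. Kcnq3 measured 128 ± 9 CPM in controls against 125 ± 11.3 CPM in iKO, with an interval of -0.18 to 0.05 on the log2 scale. Kcnq5 measured 12.4 and 13.5 CPM, with an interval of -0.07 to 0.33. It shares exonic sequence with Gm26580 on the other strand.

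Of the EAG and ERG channels, whose best known member Kcnh2 repolarises the heart, none passed. Kcnh2 measured 130 ± 13.9 CPM in controls against 125 ± 20.4 CPM in iKO, and Kcnh1 measured 64.9 ± 5.78 and 63.6 ± 4.47 CPM. Kcnh7 varied most among the abundant genes, from 158 to 274 CPM in controls, with control 1 the highest, and from 186 to 248 CPM in iKO. Kcnh6 measured 34.3 CPM in controls against 38.4 CPM in iKO (0.17 ± 0.0952; edgeR adjusted p = 0.553). Kcnh7 shares exonic sequence with Gca on the other strand.

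Silent subunits form no channel alone and alter Kv2 channels when they join them. Kcnv1, which encodes Kv8.1, measured 15.1, 18.9 and 21.4 CPM in controls against 20.1, 22.8 and 26 CPM in iKO. Only iKO 1, at 20.1 CPM, lay within the control range. Its iKO level was 124% of the control level, and the log2 fold change of 0.35 ± 0.0705 did not pass in edgeR (adjusted p = 0.0612). It passed in DESeq2 (adjusted p = 0.0025) and in edgeR with no filter on low counts. It did not pass in limma-voom or in edgeR with the other scaling, the 1 CPM filter, no covariate or replicate number as a block. Nor did it pass in tamoxifen-injected animals only or in CreERT2 carriers only. With 1 library left out it passed in 0 of 12 fits (edgeR adjusted p = 0.0703 to 0.172).

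Kcns3 was the most abundant silent subunit per kilobase, and measured 116, 128 and 139 CPM in controls against 129, 139 and 142 CPM in iKO (0.13 ± 0.0492; edgeR adjusted p = 0.352). Kcns1, a marker of large myelinated neurons, measured 42.6, 51.4 and 56.7 CPM in controls against 49.4, 55.1 and 71.3 CPM in iKO (0.18 ± 0.0791; edgeR adjusted p = 0.417). The groups overlapped in both genes. Kcng4 measured 24.4 and 25.5 CPM, and Kcng3 5.21 and 5.11 CPM, in controls and iKO.

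The sodium-activated channel gene Kcnt1, which encodes Slack, measured 211 ± 23.6 CPM in controls against 200 ± 20.9 CPM in iKO, with an interval of -0.24 to 0.12 on the log2 scale. Kcnt2, which encodes Slick, was the lower of the pair per kilobase (1.7 against 22.2 CPM per kb in controls) and measured 11.7 ± 1.7 and 10.7 ± 1.11 CPM. Neither passed (edgeR adjusted p = 0.842 and 0.618). Kcnt2 shares exonic sequence with 4930590L20Rik on the other strand, which was assigned 1 read beside 2445 for Kcnt2.

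By level, 14 of the 31 genes measured at least 100 CPM in controls, 13 between 10 and 100 CPM, and 4 under 10 CPM. Per kilobase of exon the order in controls began with Kcnab2 (202 ± 20.7 CPM per kb), Kcna2 (73 ± 4.43), Kcna1 (54 ± 3.82) and Kcnd1 (46.3 ± 3.99). Kcns3 followed at 40.1 ± 2.74 CPM per kb and Kcnip4 at 36.9 ± 3.72. From Kcna1 down to Kcnip4 the range of control libraries of each gene overlapped that of its neighbour, while Kcna2 and Kcna1 did not overlap. These ranges run across libraries and do not compare the genes within each library. At the lower end stood Kcna3 (0.677 CPM per kb) and Kcnd2 (0.781). Kcna6 varied little between control libraries, with a coefficient of variation of 2.84%, against a median of 10.2% over the 31 genes and 10.1% over all genes.

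**Figure D4:**
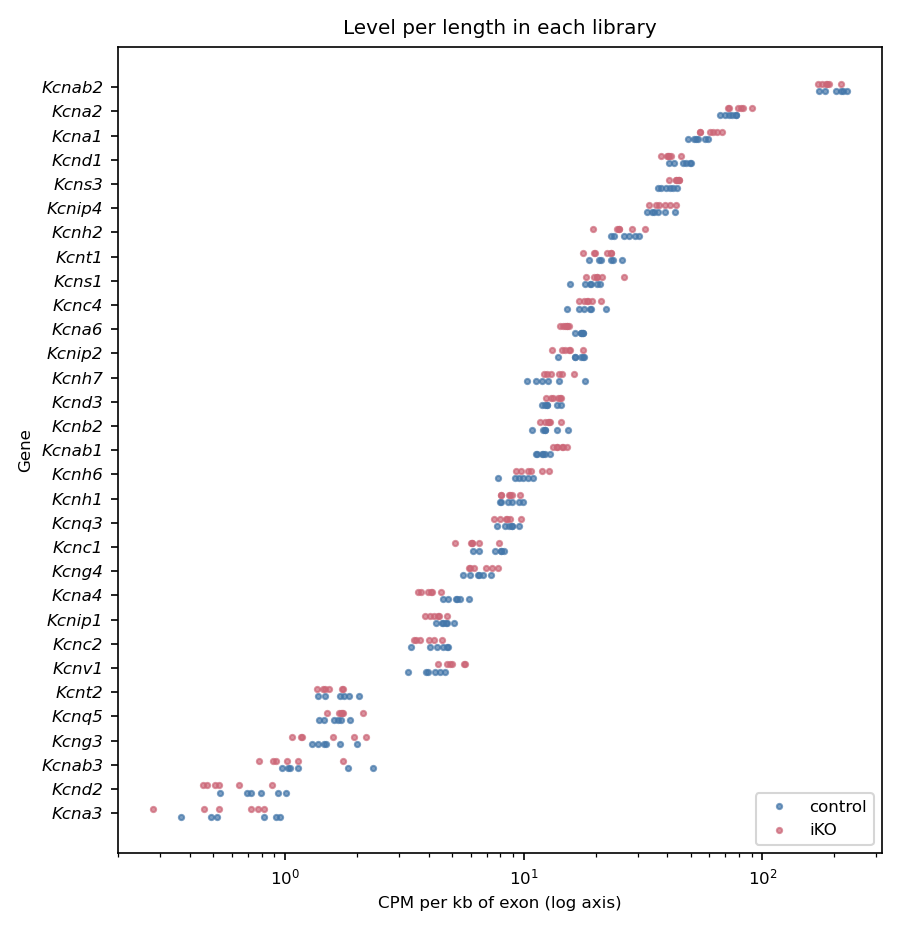
Level of each channel gene in each library, as CPM per kb of exon on a log axis, with genes in the order of the control mean; blue points are controls and red points iKO. Kcnab2 stands highest, at 202 CPM per kb on average in controls, and Kcna3 lowest, at 0.677.

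Replicates 1 to 4 compare genotypes among tamoxifen-injected animals, and replicates 5 and 6 compare tamoxifen with corn oil in males of 1 genotype. None of the 31 channel genes was called in either set by edgeR, where 0.114% and 0.00601% of all genes were. At an unadjusted p under 0.05, 5 channel genes were higher and 3 lower in replicates 1 to 4, and 2 were higher and 2 lower in replicates 5 and 6. The shares of all genes were 7.93% (3.62% higher, 4.32% lower) and 7.87% (3.8% higher, 4.07% lower). With no filter edgeR called Kcns1 and Kcnv1 in replicates 1 to 4, where it called 621 of 36539 genes in all. DESeq2 called Kcnv1 in replicates 1 to 4 and none in replicates 5 and 6, against 0.888% and 0.428% of all genes.

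Kcna6 measured 102 ± 3.39 CPM in controls 1 to 4 and 89.5 ± 2.03 CPM in iKO 1 to 4 (n = 4 each), and 104 ± 1.24 and 87.6 ± 4.36 CPM in replicates 5 and 6 (n = 2 each). Its log2 fold changes were -0.18 (edgeR adjusted p = 0.296) and -0.25 (edgeR adjusted p = 0.514). Kcna4 had -0.30 and -0.47, Kcnab1 0.22 and 0.26, and Kcnv1 0.41 and 0.21. These 4 genes were singled out by their p over all 12 libraries, so a shared sign in both sets is no independent support. Kcna2 had 0.18 in replicates 1 to 4 and 0.02 in replicates 5 and 6, and Kcns1 0.28 and 0.04.

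The difference between the sets was tested as well, and no channel gene passed in edgeR, where 0% of all genes did. At an unadjusted p under 0.05 there was 1 of 31, Kcna3, with a difference of -1.31, against 3.41% of all genes, and DESeq2 called none of the 31 and 0.0301% of all genes. For Kcna6 the difference was -0.07, with a 95% interval of -0.25 to 0.11.

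**Figure D5:**
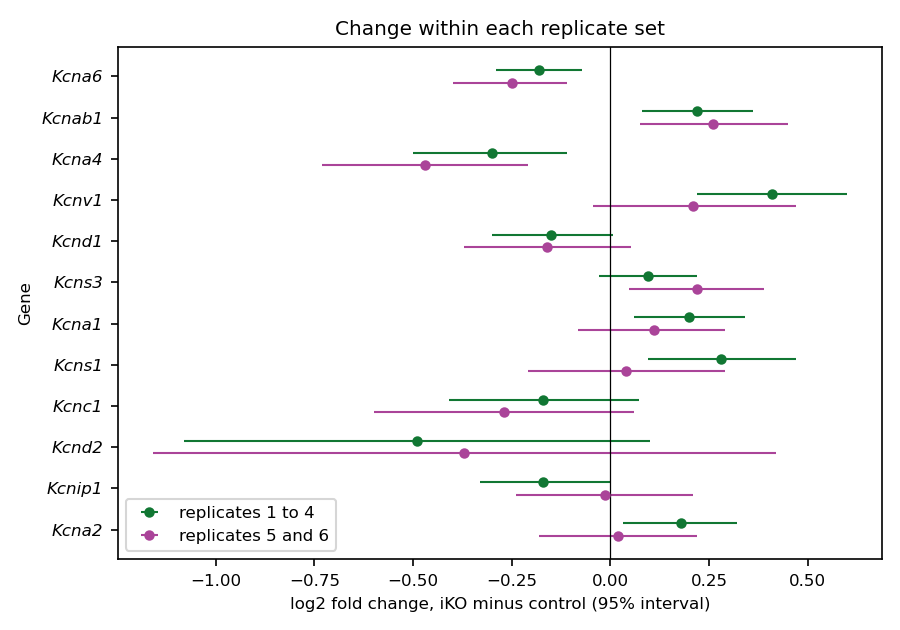
Log2 fold change, iKO minus control, within replicates 1 to 4 (green) and replicates 5 and 6 (purple) for the 12 channel genes with the smallest p over all libraries, with 95% intervals. For Kcna6, Kcna4 and Kcnab1 both intervals lie on the same side of 0.

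Other genes of the family were read from a list of 27 further Kv subunits and partners, of which 20 could be tested. None was called and 4 were lower and none higher at an unadjusted p under 0.05, where 6% of all genes were lower and 4.9% higher. The smallest p belonged to Kcne4, an accessory subunit that restrains Kv1 channels, with 4.22 ± 2.04 CPM in controls against 1.71 ± 0.544 CPM in iKO (log2 fold change -1.29; edgeR adjusted p = 0.13). Next came Kcna5, which encodes Kv1.5, with 1.68 CPM in controls against 1.05 CPM in iKO (-0.74; edgeR adjusted p = 0.267). The median log2 fold change of the list was 0.00 (0.002).

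Kv1 channels are held beside the node by an adhesion and scaffold complex. Of 16 genes of that complex and of the axon initial segment, none was called, 2 were higher and 1 lower at an unadjusted p under 0.05 (4.9% and 6% of all genes), and the median was 0.03. Cntn2, the adhesion molecule that anchors Kv1 channels at the juxtaparanode, measured 349 ± 33.8 CPM in controls against 275 ± 22.3 CPM in iKO (log2 fold change -0.32; edgeR adjusted p = 0.0511). Lgi4, a secreted protein of glia, had 0.17 (edgeR adjusted p = 0.356).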

How the data were processed

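The authors deposited raw read counts per gene, 1 file per library, without normalization. Per the submitters' processing notes, the tools were STAR 2.7.8a, featureCounts 2.0.1 and, for base calls, bcl2fastq 2.20.0.422, with the mouse build GRCm39. Per the labels' protocols, the library kit does not mark strand. Annotation release and counting options: not given in the sources used here.

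Of 55416 identifiers, 52083 had a symbol in the GENCODE M21 table. The rest held 0.274% of counts. Exon lengths are unions over the transcripts of M21 (GRCm38) and serve only for levels per kilobase.

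Counts were tested with edgeR 4.0.16 (quasi-likelihood, R 4.3.3) after filterByExpr by group, which kept 16637 genes, and TMM scaling (factors 0.969 to 1.02). Sex was a covariate. Adjusted p-values are Benjamini-Hochberg over every gene tested, and 0.05 is the threshold. Replicates 1 to 4, replicates 5 and 6 and their difference were contrasts in 1 fit of all 12 libraries. Standard errors are the absolute log2 fold change over the root of F. Levels are means ± SD. The scripts were tested on simulated counts. Pairs of libraries of the same group differed by a chi-square per degree of freedom of 7.77 to 28.8, so none was counted as a duplicate.

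The channel genes and the gene lists were chosen with earlier results of these data known. Values in full are given for the genes called, the 12 with the smallest p and the 4 highest per kilobase. Other lists give the members called, or else the 2 with the smallest p, except that marker lists of other cell types with no call are given by counts and medians. Alternatives were another scaling, other filters, DESeq2 1.42.0, limma-voom (limma 3.58.1), no covariate, a replicate block, subsets of animals and each library left out. DESeq2's missing adjusted p-values were left as missing. The result of 1 marker gene is not reported here.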

Additional observations from a re-analysis of the deposited data

Results flagged for a closer look

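Among 64 groups examined (31 channel genes and Prdm12, in controls and in iKO), 4 held a library set apart from the other 5 by more than Dixon's 95% limit for the gap divided by the range. Chance gives about 1 in 20. Kcna6 in control 1 was the lowest control at 97.1 CPM, with the others at 103 to 105 CPM. Kcnip2 in control 6 was the lowest control at 48.3 CPM, with the next at 57.1 CPM. Kcnab3 in iKO 3 was the highest knockout at 5.03 CPM, with the next at 3.26 CPM. Kcns1 in iKO 4 was the highest knockout at 71.3 CPM, with the next at 57.6 CPM. Without control 1 the log2 fold change of Kcna6 was -0.23, and it was still called by edgeR (adjusted p = 0.0376).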

How the results depend on the processing

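Over all 12 libraries, 1 channel gene and 63 genes in all were called. With no filter the counts were 3 and 138, and with at least 1 CPM in 6 libraries 3 and 81. With DESeq2 they were 4 and 338, with limma-voom 2 and 66, and with no covariate 3 and 71. They were 0 and 15 with a replicate block, 0 and 28 in tamoxifen-injected animals only, 0 and 13 in CreERT2 carriers only, and 0 and 21 without control 6, iKO 5 and iKO 6. With 1 library left out they were 0 to 1 and 23 to 88. The replicate numbers are shared by the labels without a stated meaning. Deviations of same-numbered libraries correlated at -0.40 to 0.35 and 1 of 6 matched its own number best, so the numbers were not taken as pairs. With the replicate block Kcna6 had -0.21 (edgeR adjusted p = 0.192).

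For replicates 1 to 4 the counts were 0 and 19, with no filter 2 and 621, with DESeq2 1 and 139, and 3 genes with a replicate block. With 1 library left out they were 0 and 2 to 18. For replicates 5 and 6 they were 0 and 1, with 2 genes under RLE scaling, the 1 CPM filter or no covariate, 1014 with no filter and 67 with DESeq2. With 1 library left out they were 0 and 1 to 26. For the difference between the sets both were 0, with 578 genes under no filter, 5 with DESeq2, and 0 and 0 to 15 with 1 library left out. The cause of these moves was not tested. The median control level of the 31 genes was 67.5 CPM under both scalings.

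Among the named genes, 20 values changed sign, none of them for the change over all 12 libraries and none called. With no covariate the difference between the sets was 0.029 for Kcnd1 and 0.034 for Kcnab2. The other changes of sign came with 1 library left out. For the difference between the sets the values then ran from -0.32 to 0.9 for Prdm12, -0.018 to 0.089 for Kcnab1, -0.34 to 0.0094 for Kcna4, -0.17 to 0.14 for Kcnd1, -0.05 to 0.35 for Kcnd2, -0.26 to 0.048 for Kcnc1 and -0.17 to 0.13 for Kcnab2. For replicates 5 and 6 they ran from -0.13 to 0.083 for Kcnip1, -0.069 to 0.14 for Kcns1, -0.0094 to 0.036 for Kcna2 and -0.23 to 0.058 for Kcnab2. Kcna3, Kcnab3 and Kcnd2, with 7 to 119 reads per library and control coefficients of variation of 36.6%, 40.5% and 21.8%, had intervals that reached beyond 1.5-fold.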
